A study of Oryctolagus cuniculus with 6 samples.

Results

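In rabbit skin, 1667 of 16650 last exons overlapped another last exon of the same locus with different boundaries, at 725 of the 14328 loci with a last exon. These members were chosen by position alone: a locus had to have 2 or more last exons, as 1653 loci with 3975 last exons did, and a member had to overlap another of them by at least 1 base. The other 2308 last exons of loci with several stood apart. The smallest overlap among members was 17 bases, and the smallest gap between separate last exons of a locus was 6 bases. Of the members, 1520 had the same outer end as an overlapping last exon and 182 had another outer end than one, with 35 in both classes. Most loci were simple: 593 had 2 members, 87 had 3 and 45 had 4 or more, up to 12.

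The last exon of a transcript normally holds the end of the coding sequence and most of the 3′ untranslated region, and its outer end is where the transcript is cleaved and polyadenylated. When 2 last exons of a locus overlap but share their outer end, the transcripts end at the same place and differ in where the last exon begins, through another splice acceptor or through an intron kept within the exon. When the outer ends differ, the transcripts also stop at different places, which changes the length of the untranslated region and the sites in it that microRNAs and RNA-binding proteins can reach.

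The values come from RNA-seq of skin of 30-day-old rabbits (Oryctolagus cuniculus), in 3 libraries from Prss53-/- animals, made with CRISPR/Cas9, and 3 from wild-type animals. Prss53 encodes a trypsin-like serine protease, and the series is about its link to hair curvature and skeletal dysplasia. The labels give neither the deleted bases nor whether the 3 libraries of a genotype are separate animals, so p-values measure the spread between these libraries, which may be technical. The limma test used below also takes part of this spread from the other elements in the fit. Each library has a table of transcript events with an FPKM value, the fragments assigned per kilobase of transcript, scaled to the number of mapped fragments. No build is attached to the coordinates, and the tables pair no gene names with their Ensembl identifiers. Loci are therefore given by position, and neither Prss53 nor skin marker genes could be used to check the labels.

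The libraries listed similar numbers of members, 970, 984 and 985 in the knockouts and 953, 1005 and 1028 in wild type. Knockout replicate 3 stood apart from its group. Across the 9401 loci tested for level, its log2(FPKM + 1) values correlated at 0.870 and 0.876 with those of knockout replicates 1 and 2, which correlated at 0.938 with each other, against 0.941 to 0.947 for the pairs of wild-type libraries. The shares of members showed the same order, with 0.853 and 0.834 for knockout replicate 3 against 0.888 for the other knockout pair and 0.885 to 0.903 in wild type. These are Pearson correlations across loci or exons, which are not independent replicates. The tables hold no read counts, so depth is unknown and no counting interval can be given.

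Sharing the outer end was the rule among overlapping last exons. Of 1275 overlapping pairs, 1177 (92.3%) ended at exactly the same base, and 98 did not. No pair began at the same base, so transcripts that share the start of the last exon and differ in the end alone are not represented as separate members. Members were long, with a median of 1960 bases and an interquartile range of 765 to 3538.5 bases. Separate last exons of loci with several had a median of 506.5 bases, and those of loci with a single last exon 950 bases.

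The starts of same-end pairs were a median of 659 bases apart, with 10% within 26 bases and 10% beyond 3640 bases. A distance of 3 bases was by far the most frequent of the short ones. It was found in 51 pairs, followed by 4 bases with 15 pairs and 6 bases with 7 pairs, while 1 base was found in none. Splice acceptors a codon apart are a known class of alternative acceptor, which adds or removes a single amino acid where the start lies in the coding sequence. Among the 232 pairs at most 100 bases apart, 121 (52.2%) differed by a multiple of 3, and 51 of these 121 were the pairs at 3 bases. Among the 945 pairs farther apart, 350 (37.0%) differed by a multiple of 3. A locus with many members gives many pairs, so pairs are not independent. In 57 same-end pairs (4.84%) at 31 loci, the tables also listed an intron that began inside the longer exon and ended at the start of the shorter one, the arrangement of a retained intron.

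**Figure D1:**
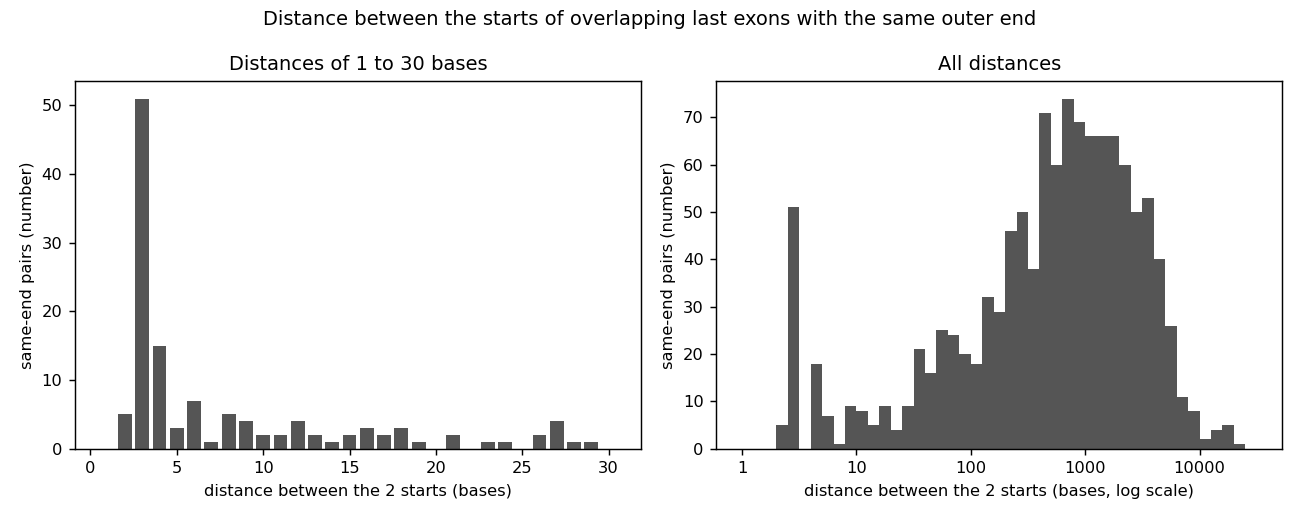
Number of same-end pairs by the distance between the starts of the 2 last exons, in bases, for distances of 1 to 30 (left) and for all 1177 pairs on a log scale (right). The bar at 3 bases holds 51 pairs, and a broad hump lies around the median of 659 bases.

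Pairs with different outer ends had ends a median of 1089 bases apart, between 3 and 18543 bases. In 62 of these 98 pairs the exon with the more distal end also began upstream and contained the other. In the remaining 36 it began inside the other exon and ran past its end. Ends lay more than 1000 bases apart in 51 pairs and within 25 bases in 10.

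Overlapping last exons were not evenly split between the strands. Of the 725 member loci, 518 (71.4%) were on the minus strand and 207 on the plus strand, although the minus strand held 6305 of the 14328 loci with a last exon. Members occurred at 8.22% of minus-strand loci and at 2.58% of plus-strand loci. Loci with 2 or more last exons of any kind leaned the same way, at 16.4% of minus-strand and 7.69% of plus-strand loci. The starts of same-end pairs were a median of 889.5 bases apart on the minus strand and 258 bases apart on the plus strand. Overlapping pairs of first exons leaned the other way, with 867 on the minus strand and 1653 on the plus strand. The part of the event calling in this asymmetry was not tested. Unplaced scaffolds held 30.3% of member loci and 27.4% of all loci with a last exon, and 86.6% of member loci had an Ensembl identifier against 82.7% of all.

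Members were often listed in some libraries and missing from others. Of the 1667, 599 (35.9%) were listed in all 6 libraries and 499 (29.9%) in a single library. Separate last exons of loci with several were listed in all 6 in 30.5% and in a single library in 41.0%. A missing row entered as 0, and it need not mean that the transcript was absent. All 3 knockouts and no wild-type library listed 23 members (1.38%), and 30 (1.80%) had rows in every wild-type library and in no knockout. Over the 3975 last exons of loci with 2 or more, the same was true of 1.31% and 1.41%, and over all last exons of 0.739% and 0.871%.

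The share of a last exon was its FPKM divided by the summed last-exon FPKM of its locus. Shares could be compared where that sum was at least 1 FPKM in every library, which left 1215 members at 522 loci and left out 452 members. Usage was mostly lopsided. Last exons were grouped when linked by overlaps, so each overlaps at least 1 other of its group but not always all. In 497 such groups with FPKM in every library, the most abundant form carried a median of 93.7% of the FPKM of its group. The same form led in all 6 libraries in 393 groups (79.1%). In 7 groups 1 form led in every knockout library and another in every wild-type library, and 5 of these 7 include an exon that passed the test described below. The other 2 lie on chromosome 19 from 41291683 to 41292599 and on an unplaced scaffold from 185296 to 188724.

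The share of the longer form in its locus varied with the distance between the starts. This was followed in the 392 tested sets of exactly 2 last exons with the same end. Other last exons of the locus count in the sum, so a longer form under 50% can still lead its pair. The longer form carried a median of 78.2% when the starts were 1 to 12 bases apart, and it held more than 50% in 36 of these 47 sets. At 13 to 100 bases the median was 26.9% (31 sets) and at 101 to 300 bases 24.9% (42 sets). It was lowest at 301 to 1000 bases, with 11.7% (111 sets), and 21.2% and 21.8% in the wider bins (112 and 49 sets). Both genotypes had this order at short distance: the median share of the longer form at 1 to 12 bases was 77.8% in knockout and 81.3% in wild type, and at 301 to 1000 bases 9.26% in knockout and 12.4% in wild type.

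**Figure D2:**
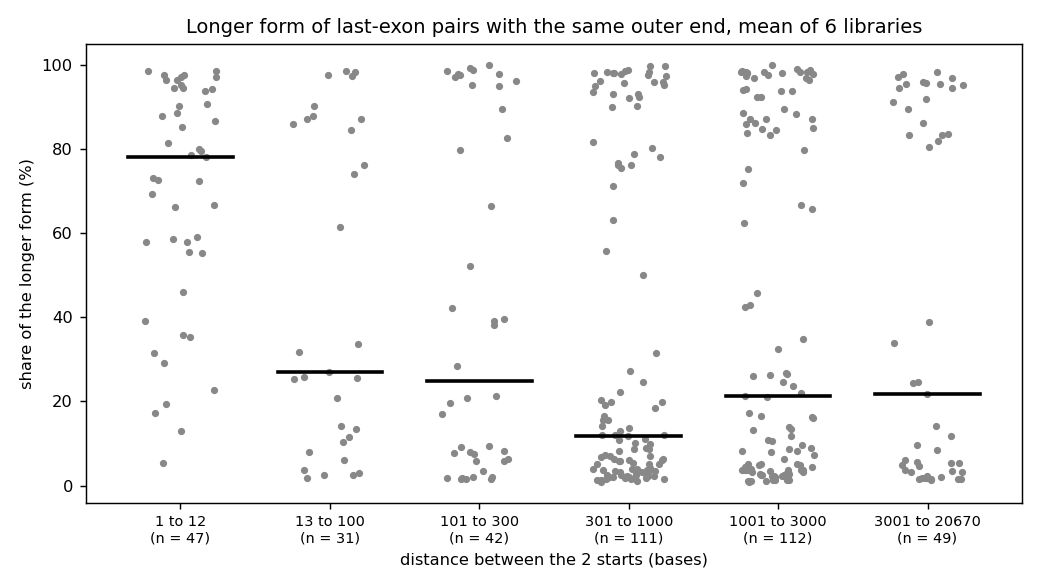
Share of the longer form, in % of the last-exon FPKM of its locus and averaged over 6 libraries, for sets of 2 last exons with the same outer end, binned by the distance between their starts. Each point is a set and the line is the median, which is 78.2% in the 47 sets at 1 to 12 bases and at most 26.9% in the other bins.

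Libraries of a genotype differed less at loci with a higher level. The SD of a member's share between libraries of a genotype had a median of 9.61 percentage points at loci under 5 FPKM, 6.78 points at 5 to 20 FPKM and 5.91 points at 20 FPKM or more. Over all 1215 tested members the median SD was 7.40 points and the median size of the difference between knockout and wild type was 5.76 points. For separate last exons the values were 7.75 and 6.11 points. In 852 members (70.1%) the genotypes differed by less than 10 points, and in 121 by more than 25 points. The knockout libraries all lay on 1 side of the wild-type libraries in 138 of the 1215 members (11.4%). Over all 16305 elements tested this held for 8.91%.

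Shares were tested with limma over all 16305 skipped exons, retained introns, alternative first exons and alternative last exons, with a Benjamini-Hochberg adjustment over all of them. At an adjusted p under 0.05, 13 of the 1215 tested members passed (1.07%), where 0.675% of all elements and 14 of the 1346 separate last exons (1.04%) did. The 13 lie at 9 loci, and 5 had a higher and 8 a lower share in knockout, where 0.294% and 0.38% of all elements were called in these directions. At a locus with only 2 last exons the shares mirror each other, so both exons give 1 test with opposite signs. This holds for the called pairs at 52333723 on chromosome 19, on chromosome 21 and at 113413 on a scaffold. Each such pair counts as 1 higher and 1 lower, while each skipped exon and retained intron entered the fit once. At an unadjusted p under 0.05 there were 98 members (8.07%) and 6.61% of all elements. In 12 of the 13 members, the tables listed either the member or its alternatives in no library of 1 genotype, so shares of 0% and 100% mean that a form was not listed. At loci with every member listed in all 6 libraries, 0 of 129 members passed and 11 had an unadjusted p under 0.05 in limma. The number of members called was 8 when either knockout replicate 2 or wild-type replicate 1 was left out, and 10 to 18 when another library was. Between 1121 and 1176 members were tested with 1 library left out. Calls over all elements in these fits are not given here, so whether members or the whole fit changed was not tested. With a mean-variance trend in limma it was 7.

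All 13 called members share their outer end with another last exon. Of the 160 tested members with another outer end than an overlapping exon, 0 passed in limma and 10 (6.25%) had an unadjusted p under 0.05, with a smallest adjusted p of 0.105. On a log2 ratio scale with a pseudocount of 0.1, 2 of these members passed. They numbered 4 (of 154 tested) without knockout replicate 1, 2 (of 162) without knockout replicate 3 and 2 (of 143) without wild-type replicate 3. Whether the classes differ was not tested.

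The locus with the highest level among the 9 was on the minus strand of chromosome 13 (ENSOCUG00000025593), where 8 last exons share the outer end at 39474282 and start between 39474972 and 39475673. The exon of 960 bases, from 39474282 to 39475241, was not listed in any knockout library and carried 100%, 100% and 82.3% in wild type (limma difference -94.1 points ± 5.67 SE, adjusted p = 0.00411). Wild type had 77.8, 40.0 and 51.5 FPKM of it. The knockouts listed shorter forms that no wild-type library listed. The exon of 759 bases, ending at the same base, carried 51.6%, 77.8% and 44.3% in the knockouts, with 138, 183 and 437 FPKM, and 0% in wild type (limma adjusted p = 0.0867). Forms of 714 and 767 bases carried 26.0% ± 17.1 and 12.0% ± 10.3 in knockout (SD, n = 3) and were not listed in wild type. Last exons of the locus summed to 267, 235 and 986 FPKM in the knockouts, against 77.8, 40.0 and 62.6 FPKM in wild type, groups that do not overlap, and this level difference did not pass (limma log2 difference 2.75 ± 0.56 SE, adjusted p = 0.0912).

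On chromosome 19, 3 last exons on the plus strand share the outer end at 25440413 and start in steps of 8 bases, at 25436664, 25436672 and 25436680 (ENSOCUG00000014519). The shortest form carried 100% in each knockout, with 3.28, 2.45 and 3.18 FPKM, and was not listed in wild type (limma difference 100 points ± 2.74 SE, adjusted p = 0.000262). The SD of its share was 0 in both genotypes, so this SE comes from the spread of other elements, through the moderation in limma. Wild-type replicates 1 and 3 listed the longest form alone, with 3.41 and 2.76 FPKM, and wild-type replicate 2 listed the longest at 29.5% and the middle form at 70.5%. The levels of the locus overlapped, at 2.45 to 3.28 FPKM in the knockouts and 2.43 to 3.41 FPKM in wild type. A smaller step was found on an unplaced scaffold, where 2 plus-strand exons end at 113413 and start 2 bases apart. The shorter exon, from 112000, carried 100% in each knockout, with 3.06, 4.44 and 3.13 FPKM, and 0%, 10.4% and 13.8% in wild type. The longer exon, from 111998, was not listed in the knockouts and had 9.15, 7.59 and 5.56 FPKM in wild type (limma adjusted p = 0.00212 for both exons). Its locus had a lower sum in each knockout than in any wild-type library (limma log2 difference -0.99 ± 0.20 SE, adjusted p = 0.0869).

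At 2 further loci a longer and a shorter exon replaced each other. On chromosome 21 (ENSOCUG00000009398, minus strand, shared outer end at 9308593) the exon of 2629 bases carried 100% in each knockout, with 1.18, 1.57 and 2.45 FPKM, and was not listed in wild type. The exon of 2033 bases was not listed in the knockouts and carried 100% in wild type, with 2.53, 1.88 and 2.13 FPKM (limma adjusted p = 0.000262 for both). Here too the share SD was 0 in both genotypes, and the spread in the limma test came from other elements. The opposite arrangement was found on the minus strand of an unplaced scaffold with the outer end at 962125. There the exon of 1685 bases carried 100%, 82.8% and 100% in the knockouts and was not listed in wild type (limma adjusted p = 0.00401). The exon of 2700 bases was not listed in the knockouts and carried 100%, 74.5% and 100% in wild type (limma adjusted p = 0.0130). So the longer exon was the knockout form on chromosome 21 and the wild-type form on the scaffold.

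At the other 4 loci a form listed in wild type had a lower share in knockout or was not listed there. On chromosome 19 (ENSOCUG00000017409, minus strand, outer end at 52333723) the exon of 7560 bases had 7.67, 6.84 and 7.28 FPKM in wild type, where it carried 34.1%, 34.2% and 34.8%, and it was not listed in the knockouts. The exon of 5014 bases had 25.6, 14.6 and 35.4 FPKM in the knockouts, against 14.8, 13.2 and 13.6 FPKM in the wild-type libraries (limma adjusted p = 0.0111 for both shares). On chromosome 15 the exon of 6768 bases with the outer end at 19927099 was not listed in the knockouts and carried 69.9%, 82.4% and 52.9% in wild type (limma adjusted p = 0.0311). An exon of 5819 bases with the same end carried 100%, 70.9% and 54.4% in the knockouts and 30.1%, 17.6% and 31.5% in wild type, and its difference did not pass (limma adjusted p = 0.298).

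At the last pair of loci, separate last exons carried most of the knockout FPKM. On an unplaced scaffold, minus strand, the exon of 3640 bases from 39372 to 43011 was not listed in the knockouts and carried 31.6%, 39.5% and 48.1% in wild type (limma adjusted p = 0.0387). In the knockouts 100% lay in a separate last exon from 130503 to 132279, with 11.2, 9.97 and 16.5 FPKM, where wild type had 4.37 FPKM in replicate 1, 0.758 FPKM in replicate 3 and no row in replicate 2 (limma adjusted p of its share = 0.0679). On another scaffold the exon of 4331 bases from 762134 to 766464 was the only called member that was listed in both genotypes and whose alternatives were too. It carried 24.2%, 39.4% and 29.8% in the knockouts and 100%, 100% and 81.3% in wild type (limma adjusted p = 0.0304). Its own FPKM was 0.667, 1.56 and 1.31 in the knockouts and 1.35, 1.89 and 1.57 in wild type, so the levels of this exon overlap and the shares do not.

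Of the 13 called members, 7 at 5 loci passed whichever of the 6 libraries was left out, with limma adjusted p-values of up to 0.0321, and the same 7 passed with a mean-variance trend. These are the members at 39474282 on chromosome 13, 25436680 on chromosome 19, both on chromosome 21, the 1685-base exon at 962125 and both at 113413. Of these loci, only that on chromosome 13 had at least 5 FPKM in every library, and the lowest sums of the others were 1.18 to 3.60 FPKM. Each of the 7, or its alternatives, was listed in no library of 1 genotype, which leaving out a library cannot test. With the replicate number as a block, their limma adjusted p-values were 0.0807 to 0.122. The exons on chromosome 15, both at 52333723 on chromosome 19, the 2700-base exon at 962125 and the exon at 762134 passed in 1 of the 6 fits, with adjusted p-values of up to 0.120, and the exon at 39372 passed in none, with up to 0.152. None of the 9 loci had a called first exon, skipped exon or retained intron, and 0 passed the test of level (limma).

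**Figure D3:**
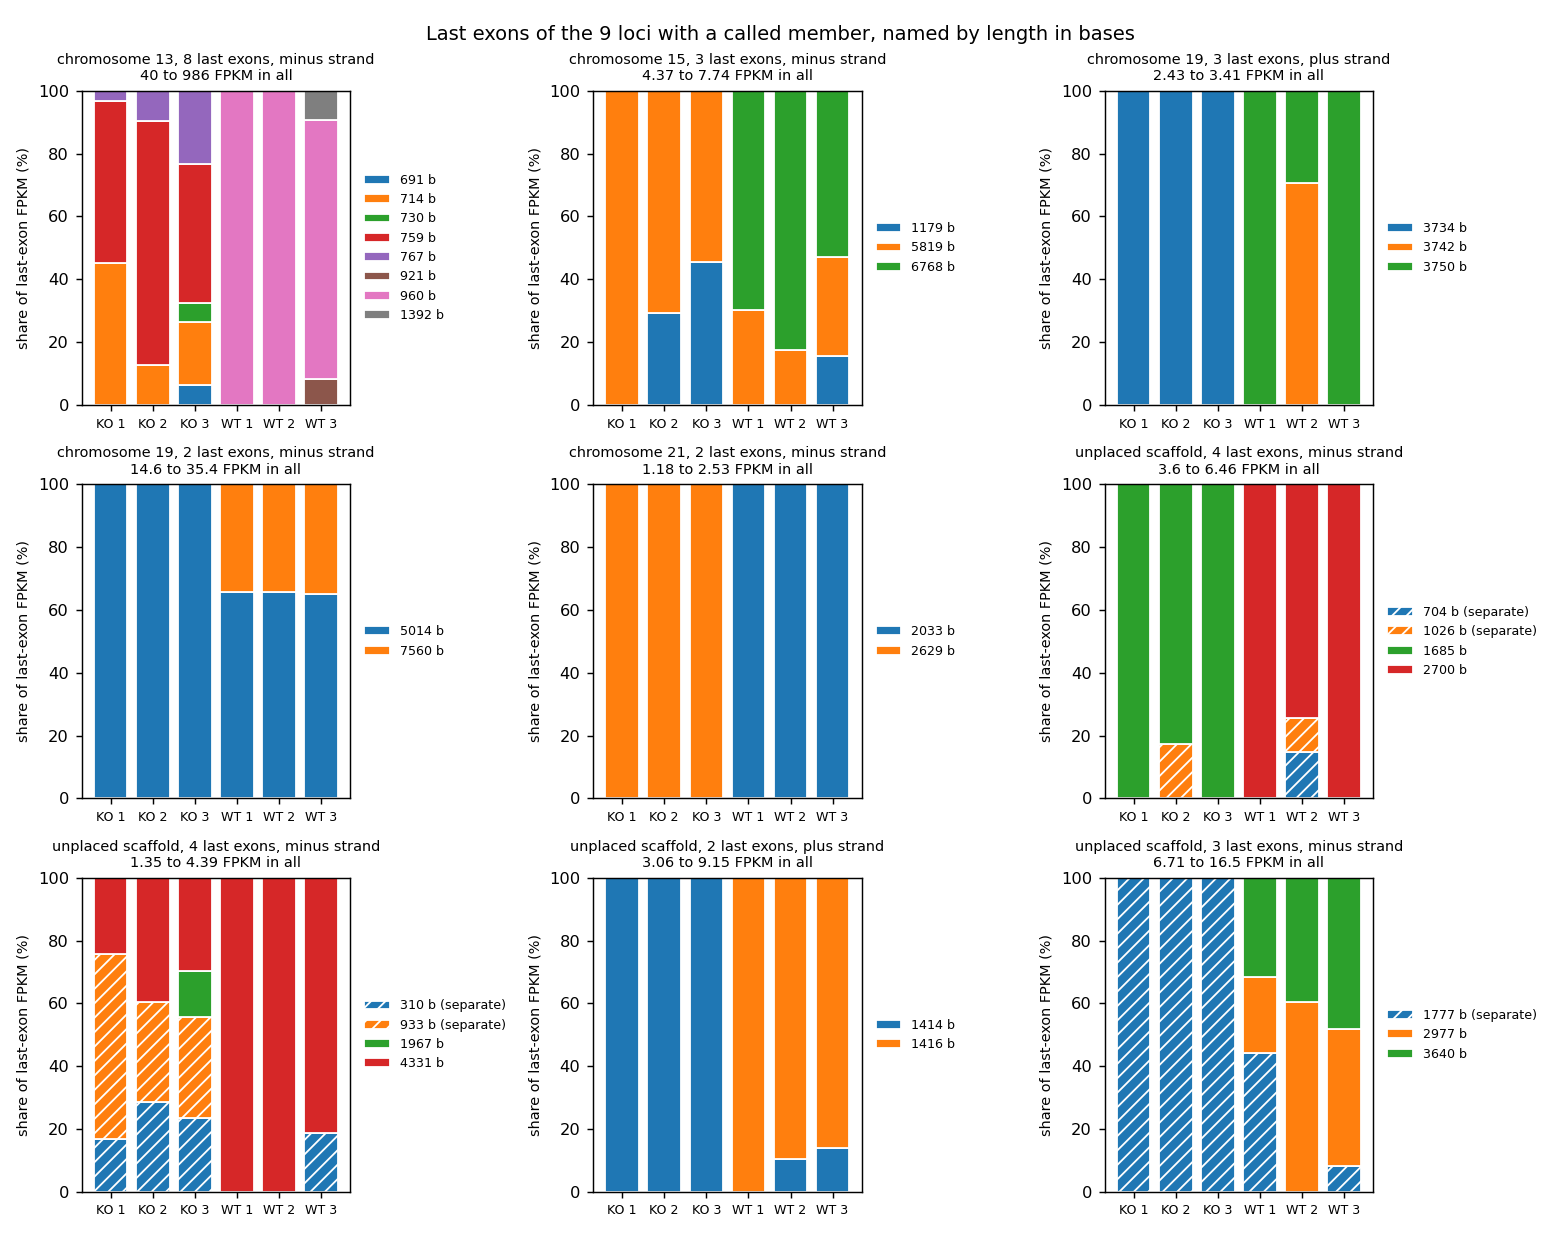
Share of the summed last-exon FPKM (%) carried by each last exon in 3 knockout (KO) and 3 wild-type (WT) libraries, for the 9 loci with a called member. Colours stand for last exons, named by length in bases (b), and hatching marks last exons that overlap no other. In each of the 9 loci a colour present in all 3 libraries of 1 genotype is missing from the other.

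Sets of last exons with the same end, at loci with at least 1 FPKM in every library, were then examined by the share of their longest form. Of 474 such sets, 50 (10.5%) had groups that did not overlap, 20 with a higher and 30 with a lower share in knockout. Over all elements 4.28% did not overlap and were higher, and 4.63% did not overlap and were lower. With at least 5 FPKM in every library there were 15 higher and 13 lower sets among 232. The shares over all elements are for a minimum of 1 FPKM and are not given here for 5 FPKM, so they cannot be set beside these counts. Of the 5 with the largest difference in each direction, the chromosome 19 and scaffold exons at 52333723 and 39372 passed the test and 8 did not. The 8 are given as values.

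On chromosome 1 the exon of 8342 bases from 49539548 to 49547889, among 5 with the same end, had 43.9%, 83.8% and 52.6% in the knockouts and 12.0%, 12.9% and 11.6% in wild type (limma adjusted p = 0.218). The knockout values are far apart, while the wild-type values lie close together. The difference was 48.0 points of the locus and 13.9 points as a share of the exons that overlap it. On chromosome 8 the longer of 2 exons, from 32698880 to 32700606, had 97.8% ± 3.90 in knockout, against 67.4% ± 9.75 in wild type (SD, n = 3 each; limma adjusted p = 0.157). On an unplaced scaffold the exon of 1391 bases from 358940 had 65.6%, 63.0% and 68.5% in the knockouts and 0%, 46.7% and 13.4% in wild type, a difference of 45.6 points of the locus and 66.9 points of the overlapping exons. On chromosome X, 2 exons with the outer end at 86526307 start 5 bases apart, and the longer had 44.0%, 44.7% and 63.1% in the knockouts and 8.03%, 38.4% and 13.6% in wild type. The longer of 2 exons at 155872460 on chromosome 2 had 64.4%, 100% and 100% in the knockouts and 62.9%, 61.2% and 64.0% in wild type (limma adjusted p = 0.695). Knockout replicate 1 thus lay close to wild type.

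In the other direction, the longer exon from 39530203 to 39533706 on chromosome 13 had 67.6%, 0% and 84.3% in the knockouts and 100% in each wild-type library, a difference of -49.4 points that was -24.1 points without knockout replicate 2. The level of that locus was 15.2, 7.20 and 37.7 FPKM in the knockouts, against 74.7, 42.7 and 74.1 FPKM in wild type, and it did not pass (limma adjusted p = 0.190). On chromosome 17 the exon from 41399359 to 41400087 had 38.6% ± 18.0 in knockout, against 65.8% ± 3.32 in the wild-type libraries (SD, n = 3 each; limma adjusted p = 0.568). On chromosome 19 the exon from 4088251 to 4088856, the longest of 4, had 11.5%, 17.4% and 0% in the knockouts and 29.7%, 32.1% and 29.9% in wild type (limma adjusted p = 0.288). Its locus had 72.7 to 122 FPKM in the knockouts and 140 to 176 FPKM in wild type. In these 3 loci the knockout libraries varied more than the wild-type libraries.

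**Figure D4:**
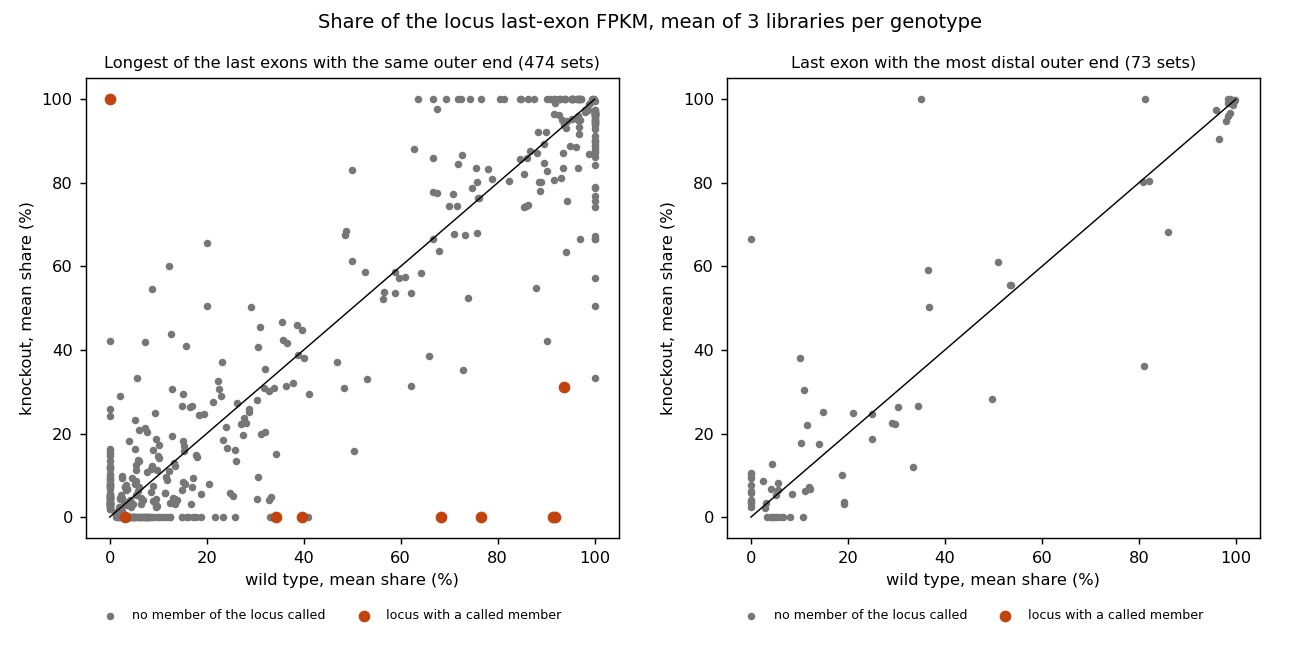
Mean share in knockout against mean share in wild type (%, 3 libraries each) of the longest last exon among those with the same outer end (left, 474 sets) and of the last exon with the most distal end (right, 73 sets). Loci with a called member are coloured and lie only in the left panel; most sets follow the diagonal, with a group of sets at 0% or 100% in 1 genotype.

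Among last exons with different outer ends the share of the exon with the most distal end was followed. In 73 such sets its median share was 16.8%, with an interquartile range of 5.12% to 56.0%, and it carried more than 50% in 21 sets. Its mean was higher in knockout in 37 sets and lower in 36, and groups did not overlap in 9 sets (12.3%), 4 higher and 5 lower, where 8.91% of all elements did not overlap, 4.28% higher and 4.63% lower. The largest difference at 5 FPKM or more was on the plus strand of chromosome 19, between an exon from 41291800 to 41292599 and one from 41291683 to 41292048, whose ends lie 551 bases apart. The distal exon carried 17.1%, 45.5% and 45.7% in the knockouts and 80.2%, 65.9% and 97.3% in wild type (limma adjusted p = 0.309). Both exons were listed in all 6 libraries, and the locus lay between 10.2 and 13.8 FPKM.

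The other sets of this kind with groups that do not overlap gave smaller differences. On chromosome 7 the distal end at 160455922 had 28.2% ± 1.56 in knockout, against 49.8% ± 10.7 in the wild-type libraries (SD, n = 3 each). On chromosome 16 the distal exon from 67047827 to 67050002, 2150 bases beyond the proximal end, had 9.37%, 0% and 0% in the knockouts and 17.6%, 13.8% and 25.9% in wild type. The most abundant locus with different ends, on chromosome 3, had 10.1%, 5.38% and 3.36% of its FPKM in the distal exon from 97143559 to 97144000 in the knockouts and 11.1%, 10.7% and 11.4% in wild type. The share at 64721594 on chromosome 9 was 97.7%, 96.8% and 90.3% in the knockouts and 97.9%, 98.2% and 97.9% in wild type, a difference of -3.06 points that was -0.74 points without knockout replicate 3. None of these 4 passed (limma adjusted p between 0.448 and 0.695).

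Of 40 sets with at least 5 FPKM in every library, 2 had a higher distal share in every knockout library than in any wild-type library. In 5 it was lower, and the shares over all elements at this minimum are not given here. An exon on an unplaced scaffold from 8 to 1754 carried 9.10%, 9.51% and 9.26% in the knockouts and was not listed in wild type (limma adjusted p = 0.421). On chromosome X the distal exon from 94868122 to 94872909 had 13.2%, 12.9% and 88.5% in the knockouts and 9.33%, 9.88% and 11.3% in wild type. Knockout replicate 3 sets this mean, and the difference was 28.0 points with it and 2.87 points without it.

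Averages per library were compared with an exact permutation test (two-sided), which cannot go below p = 0.1 with 3 against 3 libraries. Over the 474 same-end sets the longest form carried a mean of 39.7%, 37.9% and 38.3% in the knockouts and 39.9%, 40.8% and 40.7% in wild type. The groups did not overlap, and the difference of -1.84 points had this smallest p (38.6% ± 0.935 in knockout against 40.5% ± 0.510 in wild type, SD of 3 libraries each, exact permutation p = 0.1). On the minus strand the difference was -1.29 points and on the plus strand -3.72 points, each with groups that did not overlap, a split chosen after the values were seen. Without knockout replicate 3 it was -1.16 points (exact permutation p = 0.4), and at loci with every member listed in all 6 libraries it was -0.00053 points (53 sets). Over the 73 sets with different ends the distal form carried a mean of 31.3%, 34.9% and 36.7% in the knockouts and 32.3%, 33.6% and 32.6% in wild type, so the groups overlap (difference 1.44 points, exact permutation p = 0.5). Without knockout replicate 3 the sign of this difference changed, to -0.41 points.

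**Figure D5:**
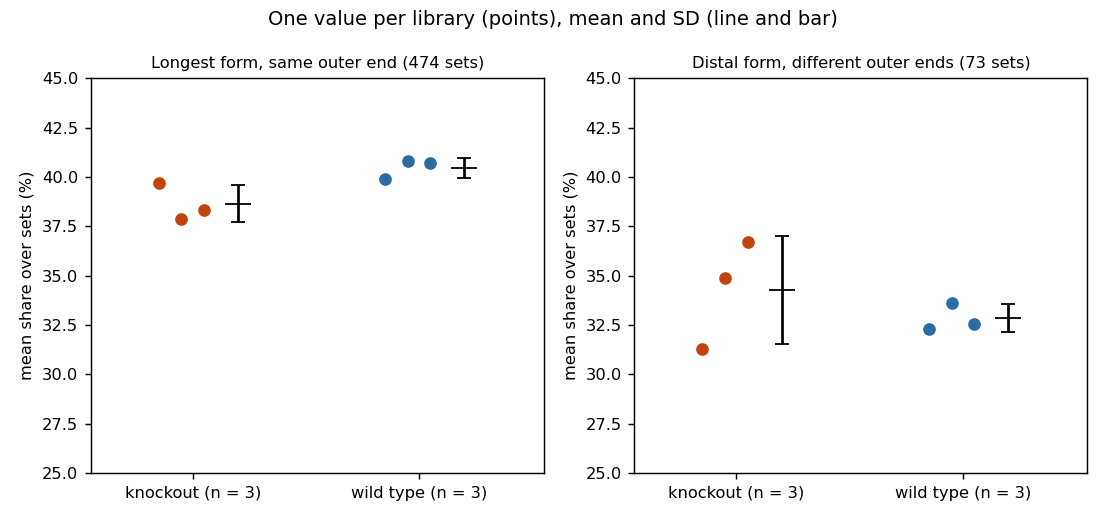
Mean share (%) per library of the longest form over 474 sets with the same outer end (left) and of the distal form over 73 sets with different outer ends (right). Points are libraries, lines and bars the mean and SD of 3; the vertical axis starts at 25%, the knockouts lie below wild type on the left, from 37.9% to 39.7%, and the groups overlap on the right.

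The level of loci with overlapping last exons was tested apart from the shares. Their summed last-exon FPKM had a median of 5.34 FPKM over the 6 libraries, against 3.32 FPKM for all loci with a last exon. In limma on log2(FPKM + 1), 12 of 622 tested member loci passed (1.93%), 7 higher and 5 lower in knockout, where 1.24% of all 9401 loci did. At an unadjusted p under 0.05 there were 105 of these 622 loci and 15.9% of all loci. The median log2 difference was -0.05 for member loci and -0.08 for all loci. Fewer passed in limma with any library left out, among member loci and among all loci. Without knockout replicates 1, 2 and 3 the number was 5, 0 (93 of 604 at an unadjusted p under 0.05) and 9, where 0.738%, 0.293% and 1.02% of all loci passed. Without wild-type replicates 1, 2 and 3 it was 2, 3 and 2, where 0.109%, 0.174% and 0.185% of all loci passed. The abundant chromosome 3 locus with different ends was among the 12, with 2108, 1837 and 1599 FPKM in the knockouts, against 886, 804 and 869 FPKM in the wild-type libraries (limma log2 difference 1.11, adjusted p = 0.0240).

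At the 3 most abundant same-end loci the groups overlapped in share. On chromosome 9 the exon of 303 bases from 3477783 to 3478085 carried at least 99.95% in every library, at 683 to 833 FPKM in the knockouts and 457 to 641 FPKM in wild type. On chromosome 4, 2 exons from 36621950 start 3 bases apart, and the longer carried 29.8%, 27.3% and 26.9% in the knockouts and 33.5%, 30.2% and 27.6% in wild type, at 316 to 485 FPKM (limma adjusted p = 0.702). On chromosome 1 the longer exon from 141307967 varied within each genotype, with 19.8%, 0% and 0% in the knockouts and 28.2%, 16.3% and 0% in wild type. Among abundant loci with different ends, the distal form was at 22.6% ± 13.7 in knockout and 29.1% ± 12.5 in wild type on chromosome 1 near 194255029. On chromosome 17 the exon from 27606912 was listed in wild-type replicate 2 alone, at 32.1%.

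The loci with the most members kept several forms in every library. A plus-strand locus on chromosome 13 without an Ensembl identifier had 12 overlapping last exons that all end at 39987218, with starts from 39980611 to 39985013. Its longest form, of 6608 bases, had 30.6% ± 15.1 in knockout, against 12.8% ± 2.12 in wild type (SD, n = 3 each), with groups that do not overlap (limma adjusted p = 0.695). The exon of 2677 bases from 39984542 was not listed in the knockouts and had 6.41%, 8.42% and 8.88% in wild type (limma adjusted p = 0.605). Another locus on the same strand, from 39879280 to 39943523, had 8 members in 2 groups of overlapping exons that end at 39881899 and 39943523. The group ending at 39943523 varied little: its exon of 2486 bases had 24.3% ± 2.68 in knockout and 26.0% ± 2.90 in wild type, and that of 2135 bases 17.6% ± 0.818 in knockout, against 20.9% ± 0.912 in the wild-type libraries (SD, n = 3 each). On an unplaced scaffold 9 exons end at 1793700. The exon from 1789516 had 19.8% ± 7.74 in knockout and 44.6% ± 20.2 in wild type, and the exon from 1789564 had 5.23%, 5.39% and 7.83% in the knockouts and no row in wild type (limma adjusted p = 0.695 for both).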

How the data were processed

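Skin RNA was taken up in Trizol and sequenced from NEBNext Ultra RNA libraries, per the labels' protocols. Per the submitters' processing notes, bcl2fastq 2.17.1.14 and cutadapt were used. Which aligner, assembler and event caller made the tables, and on which build, is not given in the sources used here. The values are the FPKM the authors deposited, in a separate table for each library, with no row at 0.

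For each last exon and library, 1 value was read, missing rows entered as 0, and shares were computed as described. Distal ends are downstream on the strand of the locus. Shares were fitted with limma 3.58.1 in R 4.3.3 with empirical Bayes moderation, and summed last-exon levels with a mean-variance trend on log2(FPKM + 1) at loci with 1 FPKM or more in at least 3 libraries. Fold changes on that scale understate the change of low loci. Genotype was the only term, tests were two-sided and the threshold was an adjusted p under 0.05. Both fits were run on simulated data with normal noise. These did not reproduce shares without spread between libraries, so calls of that kind were not tested by them. Per-library averages were compared by exact permutation in scipy 1.17.1.

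Named were all called members, the 5 sets with the largest non-overlapping difference per class and direction at 5 FPKM or more, the 3 most abundant loci per class and the 3 loci with the most members. Members and rules were chosen with earlier results of these data known. Of the 625 Ensembl identifiers at member loci, 0 matched the RefSeq gene table (38822 genes).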

Additional observations from a re-analysis of the deposited data

How the results depend on the processing

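The 13 calls became 0 at loci with every member listed in all 6 libraries (11 of 129 at an unadjusted p under 0.05), 4 with a minimum of 5 FPKM (616 members tested), 28 on a log2 ratio scale with a pseudocount of 0.1 (26 same-end and 2 different-end) and 7 with a mean-variance trend, an alternative chosen after seeing the data. Leaving out 1 library gave 8 to 18 calls (8 to 14 same-end, 0 to 4 different-end), and no minimum level gave 2 different-end calls. Calls over all elements under these settings are not given here. With the replicate number as a block, 0 of 1215 members passed in limma (81 at an unadjusted p under 0.05). For level, 4 of 622 member loci passed with the block, where 0.564% of all loci did. The labels do not say that the numbers pair libraries, and same-numbered libraries did not all deviate together: their deviations in locus level correlated at -0.06, 0.16 and 0.10 for numbers 1, 2 and 3, the last 2 above any other pairing, and in member share at -0.09, -0.01 and -0.01. For level, leaving out 1 library gave 0 to 9 called loci, where 0.109% to 1.02% of all loci passed. Library quality weights gave 31, where 3.54% of all loci passed. The distal difference of 1.44 points turned to -1.80 points with a minimum of 5 FPKM (40 sets). With all members listed it was -3.62 points on only 12 sets, at the smallest possible p (exact permutation p = 0.1). When ends within 25 bases counted as the same it was -0.25 points (66 sets). With 1 library left out it ranged from -0.41 to 4.25 points, and the cause of these changes was not tested. The longer-form difference of -1.84 points ranged from -2.38 to -1.16 points with 1 library left out and from -2.55 points (overlap of at least 50%) to -0.00053 points (all members listed) under the other settings. Of 339 values for single exons and sets under alternatives, 284 stayed on their side of the threshold or within 1 SD, 52 lost their call, 2 moved further (the chromosome 1 and scaffold sets at 49539548 and 358940, given above as shares of overlapping exons) and 1 reversed, the chromosome X distal share at 94868122, at -2.56 points as a share of its overlapping group. Some of the 284 could not change. The sets named for their difference already had 5 FPKM in every library, so the settings for the minimum level repeat their values. An overlap of at least 50% changed which exons count as members and not their p-values. The 284 also include the chromosome X distal share without knockout replicate 3, at 2.87 points against 28.0 points with all libraries. Unknown depth limits all values.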
